A study of Bos taurus with 28 samples.

Results

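FADS1 and FADS2 are the desaturases that insert double bonds into polyunsaturated fatty acids, and their transcripts were followed here in the liver of 7 ketotic and 7 healthy dairy cows. They were chosen by gene symbol in the array's annotation, because of their difference between these groups. Each has 1 probe, printed as a pair of adjacent spots, so they account for 2 probes and 4 spots of 13824 probes and 27648 spots, and for 2 of the 6958 genes tested. The ketotic cows were multiparous Holsteins fed 50% of their earlier intake until clinical ketosis, or until day 14 after calving at the latest. Restriction began on day 5 by the design text and on day 4 by the sample labels. The healthy cows were multiparous Holsteins fed ad libitum. All had been healthy when examined on day 4 after calving and were then assigned at random, so ketosis here is that of feed restriction, and it cannot be told apart from the restriction itself. Liver RNA of each cow was hybridised to 2 two-colour cDNA arrays with the dyes exchanged, against RNA of a pool of cattle tissues, and the 2 arrays of a cow were counted as 1 replicate. The labels name no age, sampling day for the healthy cows or hybridisation batch.

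Linoleic and alpha-linolenic acid come only from the diet in mammals. FADS2, the delta-6 desaturase, takes the first step from them; ELOVL5 lengthens the product; FADS1, the delta-5 desaturase, then forms arachidonic and eicosapentaenoic acid, which go into phospholipids and eicosanoids. In rodents the liver expresses both enzymes strongly, and their transcription there is raised by the sterol regulatory element binding protein SREBP-1 and by PPARA and held down by dietary polyunsaturated fat. The genes lie side by side with their relative FADS3 in cattle, by the table of assembly ARS-UCD2.0.

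A value below is the log2 ratio of liver over the reference pool after each array was centred on its median, so 0 is the ratio of the array's median probe. Values of different probes are not set against each other, since each rests on its own share of the pool. In bulk liver, fewer cells of a type and less RNA per cell cannot be told apart. The direction of the ratio follows the dye named in each array's title and is called likely. With it, 16 hepatocyte markers fixed in a list had a mean level of 5.76 to 6.75 in ketotic and 3.36 to 7.12 in healthy cows, and they lay above markers of other tissues on 28 of 28 arrays. Healthy cow 7 stood apart. Its gene values had correlations of 0.440 to 0.514 with every other cow, while no pair among the remaining cows was under 0.818. The label fields of 1 array of ketotic cow 1 name the same dye for both channels; its title was followed. The share of spots without a ratio ran from 12.2% to 25.0% in ketotic and from 9.19% to 16.6% in healthy cows.

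FADS2 was low in 6 of the 7 ketotic cows and high in the other one. The FADS2 value was 1.92 in ketotic cow 1, 0.69 in cow 2, 1.76 in cow 3, -3.91 in cow 4, -0.94 in cow 5, -0.34 in cow 6 and 4.85 in cow 7. Healthy cows 1 to 7 had FADS2 values of 4.96, 4.50, 4.58, 4.14, 5.77, 5.90 and 2.88. The groups overlap through ketotic cow 7, which lay above 4 of the 7 healthy cows, and the other 6 ketotic cows were below the lowest healthy cow, number 7. The mean was 0.58 ± 2.73 in ketotic and 4.68 ± 1.03 in healthy cows (SD, n = 7 each). The difference of the means was -4.10, or 17.1-fold lower in ketotic cows. Its SE of 0.974 is that of the limma fit, moderated with the variances of all genes, and does not follow from these SDs alone. This difference helped to choose the gene and is given as a description, with no test.

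FADS1 divided the cows it was measured in likewise. Its values were -2.85 in ketotic cow 1, -3.64 in cow 2, -2.31 in cow 3, -3.24 in cow 6 and -0.015 in cow 7, with none for cows 4 and 5. The healthy cows 1 to 7 had FADS1 values of 0.52, 0.55, 0.52, -0.87, 1.11, 0.94 and -0.38. Ketotic cow 7 again lay inside the healthy range, above healthy cows 4 and 7, and the other 4 measured ketotic cows were below every healthy cow. The mean was -2.41 ± 1.43 in ketotic cows (SD, n = 5) and 0.34 ± 0.71 in healthy cows (SD, n = 7). The difference was -2.75 (moderated SE of the limma fit 0.545), or 6.74-fold lower in ketotic cows.

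**Figure D1:**
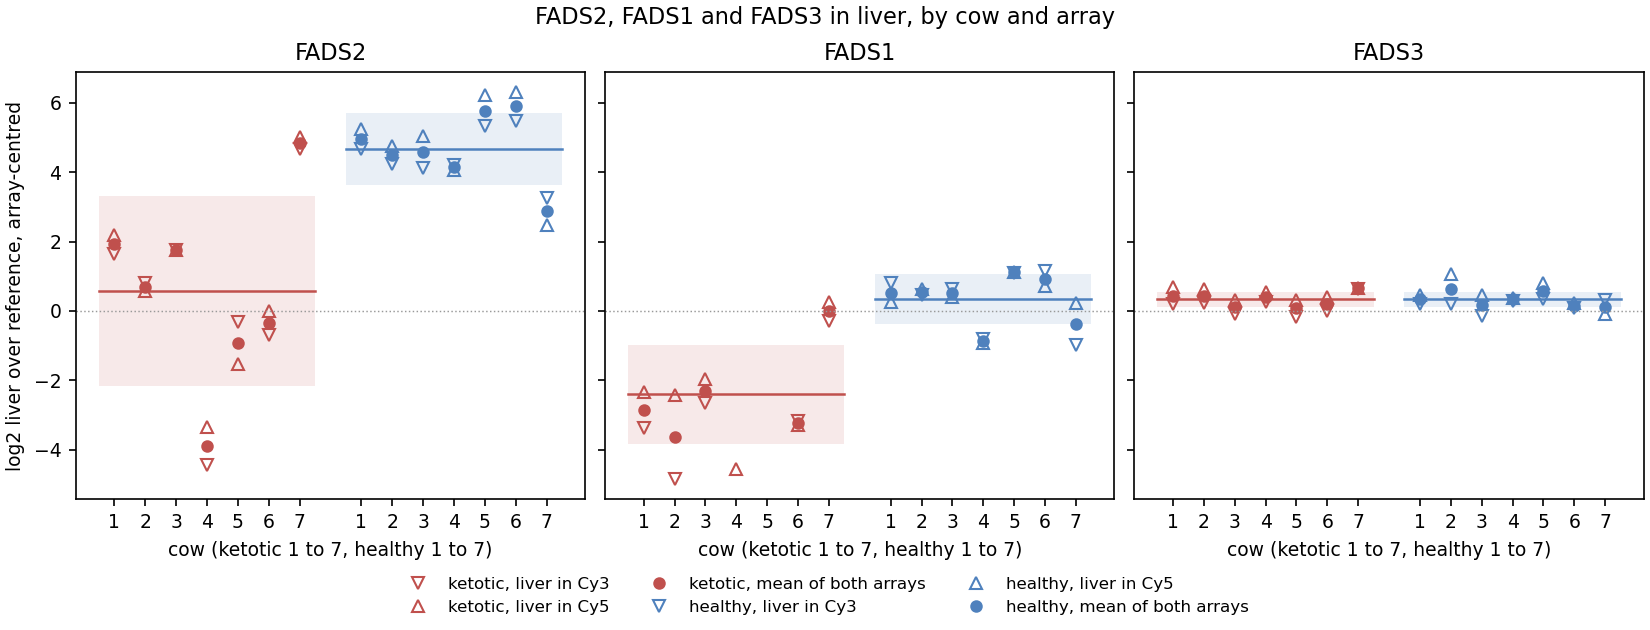
Log2 liver over reference of FADS2, FADS1 and FADS3 for each ketotic (red) and healthy (blue) cow; triangles are single arrays, filled circles the mean of a cow's 2 arrays, lines the group means and bands 1 SD. Ketotic cow 7 sits among the healthy cows for FADS2 and FADS1, and FADS3 shows no gap between the groups.

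The empty cells of FADS1 fell in ketotic cows. Of its 28 spots in ketotic cows 8 held no ratio, against 0 of 28 in healthy cows; none was at the ceiling of the deposited scale. Ketotic cow 5 had no FADS1 ratio on either array and cow 4 had one only on the array with the liver in Cy5, at -4.56. These are the cows with the lowest FADS2 values. FADS2 lacked a ratio at 1 of 28 ketotic spots, in cow 4, and at 0 of 28 healthy spots. Over all spots, the share without a ratio was 16.5% ± 4.49 in ketotic and 11.9% ± 2.80 in healthy cows (SD, n = 7 each), highest at 25.0% in ketotic cow 5. The sources used here do not say what an empty cell stands for, and its part in the FADS1 mean was not tested. With 1 array accepted for a cow, FADS1 had 6 ketotic values and a difference of -3.11.

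The spread of repeat readings within a cow differed between the genes and groups. The 2 spots of FADS2 on an array differed by a median of 0.195 in ketotic and 0.166 in healthy cows, and those of FADS1 by 0.347 in ketotic and 0.268 in healthy cows. The widest spot gaps were 1.98 for FADS2 and 1.34 for FADS1, both in ketotic cow 4, whose FADS2 is the lowest. The 2 arrays of a cow differed for FADS2 by a median of 0.56 in ketotic and 0.77 in healthy cows, and by at most 1.21 and 0.92. For FADS1 these gaps had a median of 0.70 in ketotic and 0.24 in healthy cows; ketotic cow 2 had the widest, 2.42, with -4.86 on one array and -2.43 on the other. The FADS2 order of the ketotic cows, from cow 7 down through cows 1, 3, 2, 6 and 5 to cow 4, has neighbours closer than a typical array gap, namely cows 1 and 3. Cows 7 and 4 stand off from their neighbours by more than any such gap of FADS2. By dye, the FADS2 difference was -3.98 with the liver in Cy3 and -4.21 with the liver in Cy5, and that of FADS1 -3.21 and -2.73. The FADS1 values by dye rest on unlike ketotic cows, 5 in Cy3 and 6 in Cy5. The cow measured in Cy5 alone was cow 4, at -4.56, so these 2 differences are not a plain comparison of the dyes.

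Ketotic cows differed among themselves in FADS2 more than in any other gene tested. The SD of FADS2 over the ketotic cows was 2.73, rank 1 of 6958 genes, where the median gene had an SD of 0.359. FADS1 ranked 54 in ketotic cows with an SD of 1.43. In healthy cows FADS2 ranked 531 (SD 1.03) and FADS1 1350 (SD 0.711), against a median SD of 0.420. From lowest to highest ketotic cow, FADS2 spanned 8.76 on the log2 scale, against 3.02 over the healthy cows.

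Single cows set much of the size of the differences. Without ketotic cow 7 the FADS2 difference was -4.81 (28.1-fold lower in ketotic cows) and the FADS1 difference -3.35 (10.2-fold). Without ketotic cow 4 the FADS2 difference was -3.35 (10.2-fold). Leaving out any other cow gave -4.40 to -3.85 for FADS2 and -2.95 to -2.44 for FADS1. Without healthy cow 7 alone the differences were -4.40 for FADS2 and -2.87 for FADS1.

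**Figure D2:**
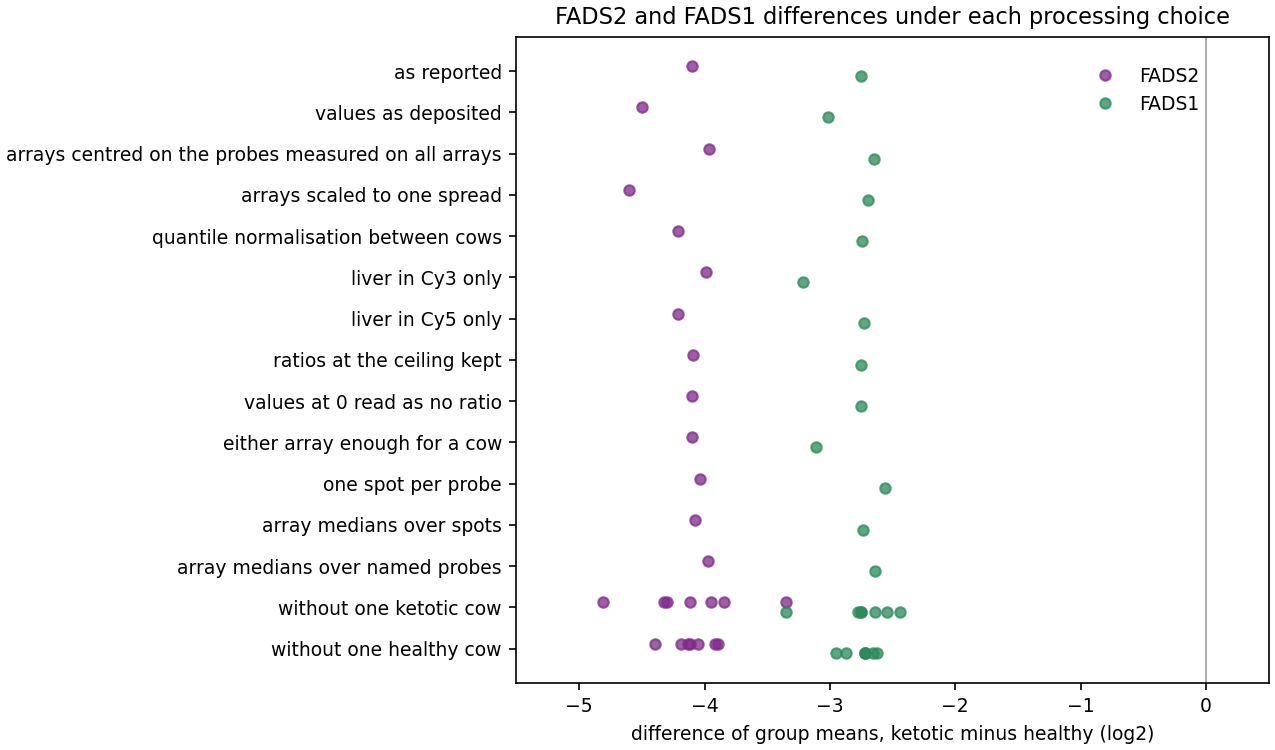
Difference of the group means, ketotic minus healthy (log2), for FADS2 and FADS1 as reported, under each processing choice, and with 1 cow left out at a time; each point is 1 fit. FADS2 stays between -4.81 and -3.35 and FADS1 between -3.35 and -2.44.

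FADS3, the third gene of the cluster, whose role in polyunsaturated fatty acids is not settled, did not follow them. It was 0.33 ± 0.21 in ketotic and 0.33 ± 0.21 in healthy cows (SD, n = 7 each), with all 28 arrays measured. The difference was -0.00025 on the log2 scale, with a 95% interval of -0.30 to 0.29 (limma adjusted p = 0.9995), and its sign turned in 14 of 28 alternative fits. Its values in ketotic cows 4 and 5, the lowest for FADS2, were 0.41 and 0.074.

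**Figure D3:**
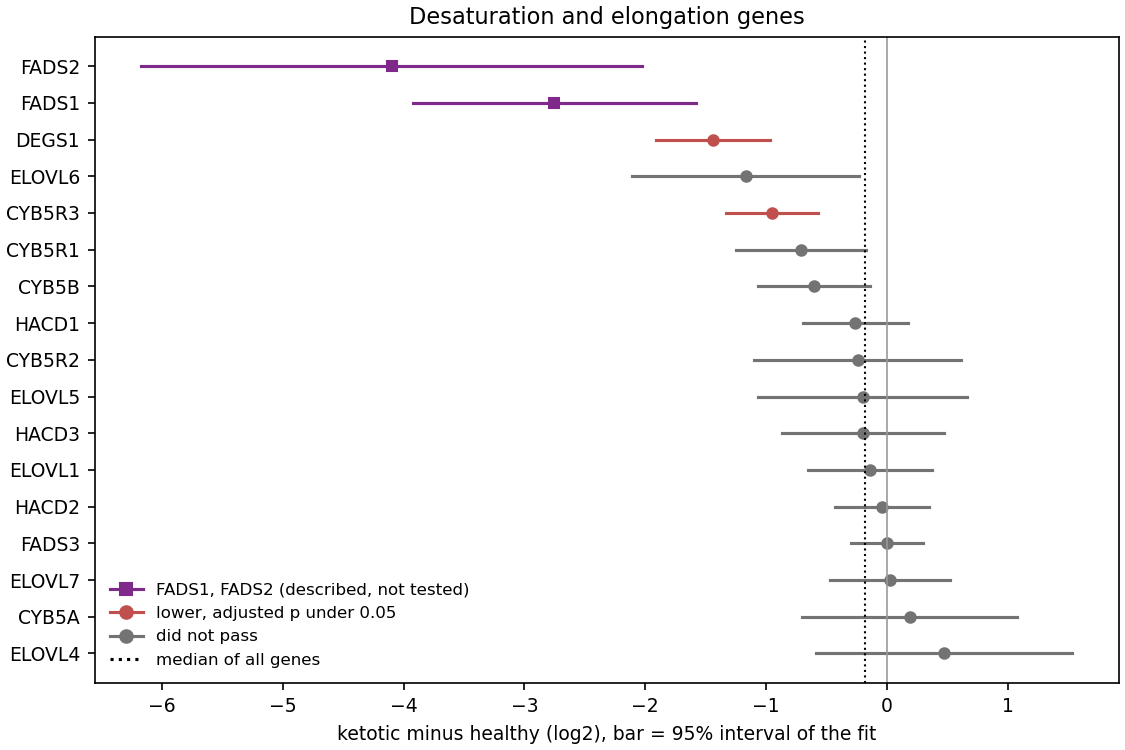
Ketotic minus healthy difference (log2) of the 17 tested desaturation and elongation genes, with the 95% interval of the fit; squares are FADS1 and FADS2, red circles genes that passed, the dotted line the median of all genes. FADS2 and FADS1 were chosen for their difference, so their low place was given in advance and their intervals are no test. Of the other genes DEGS1 and CYB5R3 passed.

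Across the whole array most calls were falls, which sets the background for other lipid genes. Of 6958 genes, 13.4% passed at an adjusted p under 0.05, 865 lower (12.4%) and 64 higher (0.92%) in ketotic cows, and the median difference was -0.18. With arrays centred on the probes measured on all arrays, 493 genes were lower and 123 higher. Without healthy cow 7, 19.9% passed (18.4% lower, 1.5% higher), and without ketotic cow 7, 10.1% (9.39% lower, 0.685% higher). The difference was below 0 in 67.2% of all genes.

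Few of the other genes of desaturation and elongation passed. Of 28 genes listed, 19 had a probe and 17 were tested. The desaturases SCD and SCD5 were among those without a probe. Of the 15 tested besides FADS1 and FADS2, 2 fell and none rose, at 13.3% close to the background share. The difference was below 0 in 12 of the 15, with a median of -0.20. DEGS1, the desaturase that turns dihydroceramide into ceramide, fell 2.71-fold (difference -1.44, SE 0.221, limma adjusted p = 0.00250). It ran from -3.07 to -1.49 in ketotic and from -1.18 to -0.23 in healthy cows, with no overlap. CYB5R3, the reductase that passes electrons to cytochrome b5 and so to desaturases, fell 1.93-fold (difference -0.95, SE 0.180, limma adjusted p = 0.00534). Values of CYB5R3 were between -0.57 and 0.31 in ketotic and between 0.25 and 1.22 in healthy cows. Every ketotic value below every healthy one, as for DEGS1, was seen in 5.39% of all genes.

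None of the tested elongases passed. ELOVL2 had a probe but was not tested, and ELOVL3 had no probe. ELOVL5, which acts between the FADS2 and FADS1 steps, had a mean of 1.07 in ketotic and 1.27 in healthy cows, a difference of -0.20 with a 95% interval of -1.07 to 0.66 (limma adjusted p = 0.799). ELOVL6, which lengthens saturated palmitate, had a difference of -1.17 (limma adjusted p = 0.0926). Healthy cow 7 was low for both, at -0.55 for ELOVL5 and -3.00 for ELOVL6. Without it ELOVL6 passed (difference -1.57, limma adjusted p = 0.00269) and ELOVL5 did not (difference -0.51, limma adjusted p = 0.299). Without that cow 6 of the 15 genes fell, where 18.4% of all genes did. ELOVL6 passed in 4 of 28 alternative fits, also on the values as deposited, with the liver in Cy3 and with array weights. The others of the list had differences of -0.71 to 0.47 in the fit of all cows and did not pass there. Among them were ELOVL1, ELOVL4, ELOVL7, the dehydratases HACD1, HACD2 and HACD3 and the cytochromes CYB5A and CYB5B.

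Among other lipid synthesis genes that SREBP factors are known to raise in mammals, several fell. Of 20 tested besides FADS1 and FADS2, 7 fell and none rose (35.0%, against 13.4% of all genes), and the median difference was -0.81, against -0.18 over all genes. LSS, the lanosterol synthase of cholesterol synthesis, fell 3.50-fold (difference -1.81, SE 0.267, limma adjusted p = 0.00243), with -1.28 to 0.66 in ketotic and 1.38 to 2.16 in healthy cows. TMEM97, the sigma-2 receptor, fell 3.04-fold (limma adjusted p = 0.00471), with 0.74 to 1.77 in ketotic and 1.82 to 3.75 in healthy cows. ACSS2, which makes acetyl-CoA from acetate, fell 3.61-fold (limma adjusted p = 0.0240), with -4.81 to -1.04 in ketotic and -1.07 to 0.97 in healthy cows. The groups did not overlap for LSS, nor for TMEM97, which had no value in healthy cow 7 (n = 6 healthy). Every ketotic value lay below every healthy one in 5.39% of all genes.

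The remaining calls of that list stood near the threshold. SQLE, the squalene epoxidase (2.47-fold, limma adjusted p = 0.0300), FASN, the fatty acid synthase (1.80-fold, 0.0420), ACAT2 of acetoacetyl-CoA synthesis (2.02-fold, 0.0436) and FDPS, the farnesyl diphosphate synthase (1.47-fold, 0.0491), fell. The count was 12 without healthy cow 7, where 18.4% of all genes fell. It was 2 without healthy cow 6, 3 without healthy cow 1 or without ketotic cow 2 or 4, and 4 without ketotic cow 5. In those fits 652, 679, 696, 775 and 715 of all genes passed, in that order, against 929 with all cows. The count of SREBP targets also varied with the array scaling, from 3 with quantile normalisation or medians over named probes to 13 on the values as deposited. Under those settings 453, 468 and 2466 of all 6958 genes fell, in that order. LSS passed in all 28 alternative fits, with adjusted p from 0.000385 to 0.0351, and DEGS1 did too, with adjusted p from 0.000405 to 0.0492.

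**Figure D4:**
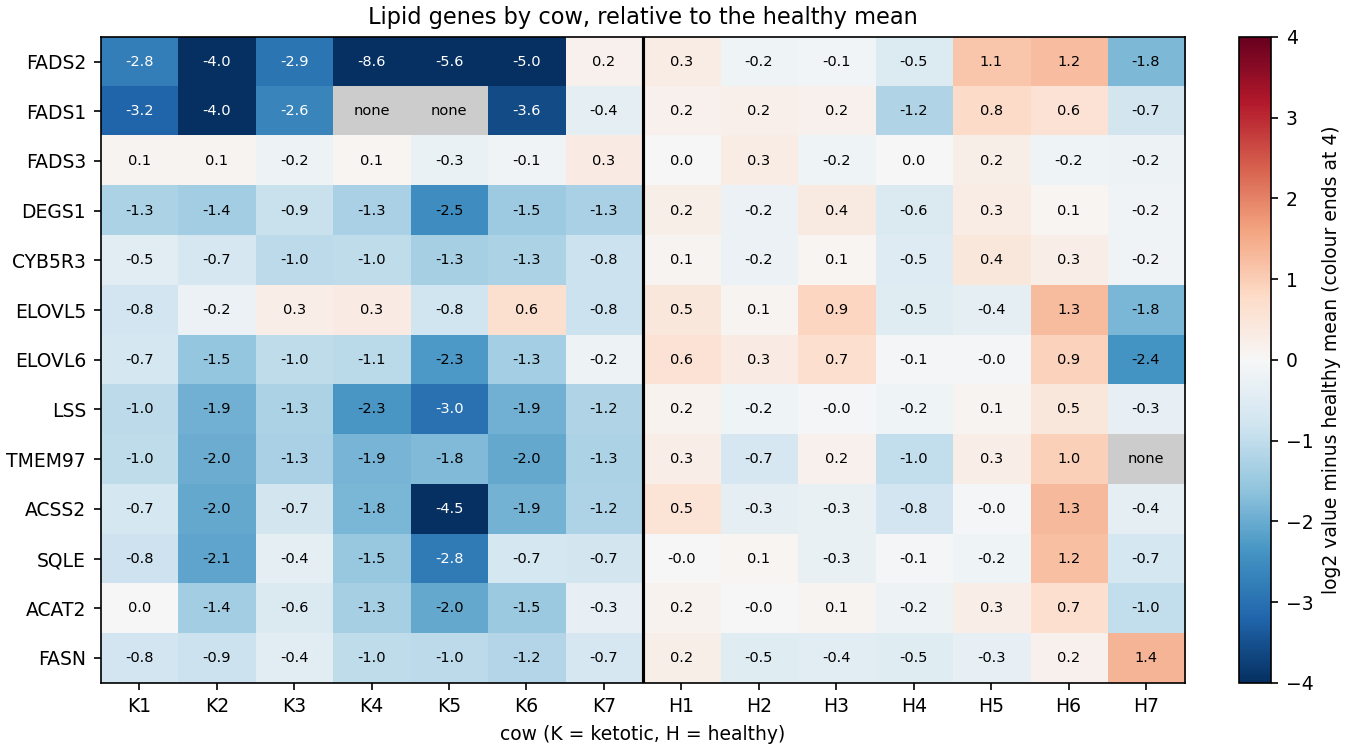
Log2 value of 13 lipid genes in each cow minus the healthy mean of that gene; columns are ketotic (K) and healthy (H) cows, colour and printed number give the value, and grey cells have none. Ketotic cow 7 is near 0 for FADS2 and FADS1 as well as for ELOVL6 and ACAT2, and farther below 0 for DEGS1, LSS, TMEM97 and ACSS2.

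Ketotic cow 7 lay inside the healthy range for FADS1 and FADS2, and for some of these other genes but not for others. Its LSS was 0.50 and its DEGS1 -1.89, both below every healthy cow. TMEM97 at 1.51 was below the 6 healthy cows with a value and ACSS2 at -1.55 below all 7. Its ACAT2 at 0.73 and its ELOVL6 at -0.84 were inside the healthy range, each above healthy cow 7 and below the other healthy cows. Of the 20 SREBP targets, 7 were below every healthy cow in ketotic cow 7, and 2 to 10 were in the other ketotic cows. Relative to the healthy mean, cow 7 was at 0.17 for FADS2 and -0.36 for FADS1, at -0.22 for ELOVL6 and -0.31 for ACAT2, and at -1.20 for LSS. Over all genes, 32.4% of the values of ketotic cow 7 lay below those of all 7 healthy cows, and the other ketotic cows ranged from 18.9% to 40.8%. Its gene values correlated at a median of 0.893 with the healthy and 0.921 with the other ketotic cows. Its arrays lacked a ratio at 18.4% of spots, second in the group to cow 5, and its hepatocyte marker level of 6.75 was the highest of the ketotic cows. This cow was singled out after its values were seen.

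Within groups FADS2 was set against 10 lipid genes, which gave 19 relations over 7 cows each. FADS1 had too few ketotic values to be included there. FADS2 and LSS ranked the cows nearly alike in both groups. In ketotic cows Pearson's r was 0.736 (exact permutation p = 0.0558, adjusted over 19 relations 0.155) and Spearman's rho 0.929 (exact permutation p = 0.00675, adjusted 0.0427), with r = 0.933 without cows 4 and 7, the farthest from the FADS2 median. In healthy cows r was 0.889 (exact permutation p = 0.00913, adjusted 0.0867) and rho 0.929 (exact permutation p = 0.00675, adjusted 0.0427), with r = 0.803 without cows 6 and 7. The adjusted p of both rank correlations was over 0.05 on the values as deposited and with healthy cow 7 left out. That cow is not part of the ketotic relation, whose rho stayed at 0.929 without it. Its adjusted p moved there only because the p-values of the healthy relations, adjusted together with it, changed.

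Other genes were as closely related to FADS2 by one measure or another. FADS2 with FADS1 in healthy cows had r = 0.80 (exact permutation p = 0.0329, adjusted 0.155) and rho = 0.811 (exact permutation p = 0.0349, adjusted 0.133), with r = 0.805 without cows 6 and 7. ACSS2 in healthy cows had rho = 0.929 (exact permutation p = 0.00675, adjusted 0.0427) and r = 0.670 (exact permutation p = 0.103, adjusted 0.179), with r = 0.592 without cows 6 and 7. In ketotic cows ACSS2 had rho = 0.643 and r = 0.448 (exact permutation p = 0.139 and 0.318), with r = 0.890 without cows 4 and 7. Leaving out those cows gave r = 0.880 for ELOVL6 and 0.837 for FASN as well, so the value for LSS was not particular to it. PPARA, the fatty acid sensor, had r = 0.908 in healthy cows (exact permutation p = 0.00754, adjusted 0.0867) and rho = 0.893 (exact permutation p = 0.0123, adjusted 0.0584), with r = 0.730 without cows 6 and 7, and in ketotic cows r was -0.535 (exact permutation p = 0.211), with r = -0.777 without cows 4 and 7. For ELOVL5, ELOVL6, FASN, SQLE and SREBF1 in healthy cows the sign of r turned when cows 6 and 7 were left out, so those relations rest on these cows. No Pearson correlation passed after adjustment over the 19 relations, and by Spearman's rho 3 did.

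**Figure D5:**
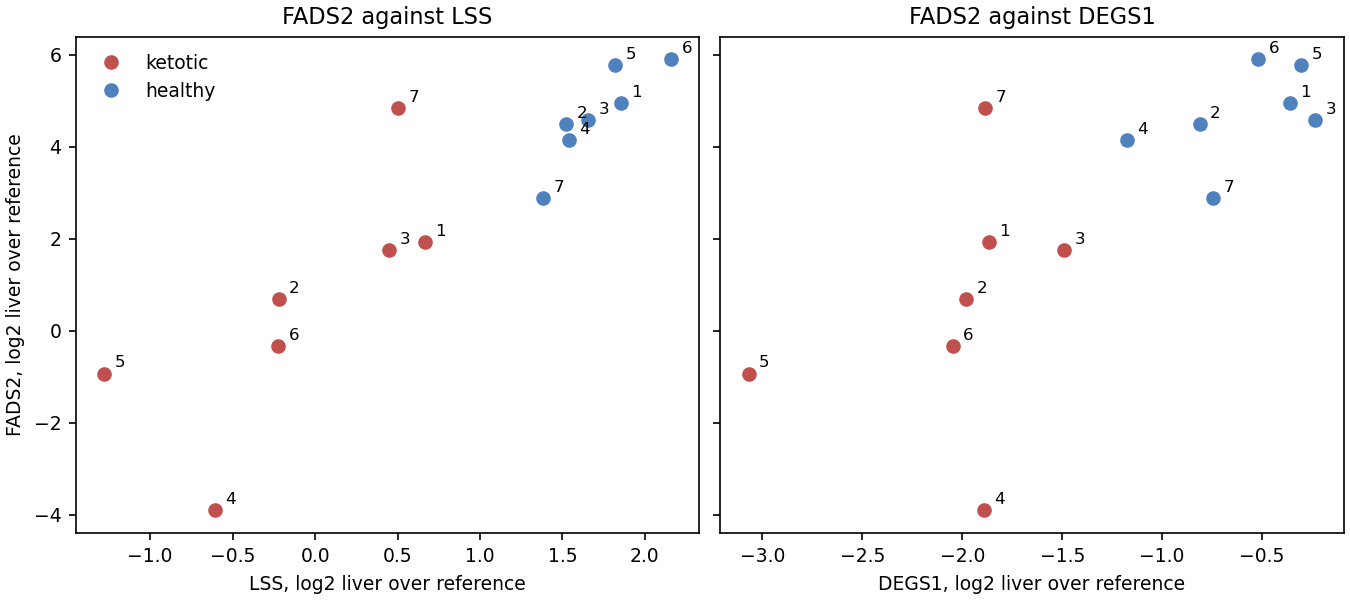
FADS2 against LSS and against DEGS1, both as log2 liver over reference, for 7 ketotic (red) and 7 healthy (blue) cows numbered by cow. FADS2 and LSS order the cows nearly alike within each group, with a few neighbours exchanged, and DEGS1 shows no overlap between the groups.

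Genes with a pattern like that of FADS2 or FADS1 over single cows were sought by Pearson's r after subtracting each group's mean. Over 12 to 14 cows the 5 genes most like FADS2 were DENND2B (r = 0.852), OPN1SW (0.825), FADS1 itself (0.821), LPAR5 (0.818) and CCNH (0.814), of 6717 genes ranked. Of these genes besides FADS1, DENND2B alone passed between the groups (difference -0.73, limma adjusted p = 0.0233). FADS1 was most like HYI (r = 0.857), CDC42EP2 (0.850), PSMG4 (0.832), CNIH1 (0.824) and STX10 (0.824) over 12 cows, with FADS2 at rank 6 of 5681; none of these 5 passed. Without healthy cow 7 the correlation of FADS1 and FADS2 was 0.819, at rank 10 for FADS2 and 17 for FADS1, and DENND2B was at rank 6. These r values are descriptions of 12 to 14 cows, the highest among all genes ranked.

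Of the factors known to act on these genes, the transcripts that were tested did not pass. Of 36 regulators listed, 21 had a probe and 20 were tested. SCAP, INSIG1, NR1H3 and RXRA were among those without a probe. Of the 20 tested regulators none fell or rose by the fit across all genes, where 13.4% of all genes passed. An unadjusted p under 0.05 was seen for 4 of the 20. SREBF1, which encodes SREBP-1, was -0.027 in ketotic and 0.13 in healthy cows on average, a difference of -0.16 with a 95% interval of -0.52 to 0.20 (limma adjusted p = 0.587). SREBF2, its relative for sterol genes, had a difference of -0.81 (limma adjusted p = 0.0633). SREBF2 passed in 5 of 28 alternative fits. These were without healthy cow 7 (0.0278), without ketotic cow 1 (0.0105), as deposited (0.00968), with the liver in Cy3 (0.0234) and with array weights (0.0480). In all, 3 regulators passed without healthy cow 7, where 19.9% of all genes did. Without ketotic cow 1, ketotic cow 2 or healthy cow 2, 1 regulator passed, beside 825, 696 and 765 of all genes. NR1H2, an oxysterol receptor, had the smallest p of the list, with -0.81 to -0.18 in ketotic and -0.42 to 0.28 in healthy cows. Its difference was -0.42 (limma adjusted p = 0.0599). NR1H2 passed in 4 of 28 alternative fits, namely without ketotic cow 2 (0.0443), without healthy cow 2 (0.0494), as deposited (0.00416) and with array weights (0.0372). For PPARA ketotic cows had 0.81 to 3.48 and healthy cows -0.51 to 2.63, and the sign of the difference turned in 7 of 28 alternative fits.

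Of 21 tested genes that activate polyunsaturated fatty acids, place them in phospholipid or oxidise them, 1 fell and none rose. This was 4.76%, against 13.4% of all genes. The 1 that fell was LPCAT3, which places polyunsaturated chains in phosphatidylcholine. It fell 1.55-fold (limma adjusted p = 0.0312), with -0.21 to 0.85 in ketotic and 0.73 to 1.47 in healthy cows. On the values as deposited 5 of the 21 fell, where 2466 of all 6958 genes did. LPCAT3 passed in 18 of 28 alternative fits. It did not pass without ketotic cow 2 or 5 or without healthy cow 1, 5 or 6 (limma adjusted p up to 0.0664). Nor did it with arrays centred on the probes measured on all arrays (0.0660) or on named probes (0.0764). With the liver in Cy3 alone its limma adjusted p was 0.0670, and in Cy5 alone 0.135. It was 0.180 with the share of spots without a ratio as covariate. Without healthy cow 7, 3 genes of the list fell, where 18.4% of all genes did. Of 21 peroxisomal oxidation genes listed, which shorten the longest polyunsaturated chains, 14 had a probe and were tested. None of these 14 passed by limma, against 13.4% of all genes. An unadjusted p under 0.05 was seen for 2 of them. ABCD3, a peroxisomal fatty acid transporter, had the smallest p of the 14 (difference -0.60, limma adjusted p = 0.0550). On the values as deposited 3 of the 14 fell, where 2466 of all 6958 genes did. Without healthy cow 7, 2 fell, where 18.4% of all genes did, and 1 fell without ketotic cow 3 or healthy cow 4. Without ketotic cow 3, 837 of all 6575 genes tested fell, and with any 1 cow left out 652 to 1368 genes passed.

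Markers of other cell types were read beside these results. Over all genes 12.4% fell and 0.92% rose. Of 8 macrophage markers 3 fell (CD74, LAPTM5 and AIF1), where 12.4% of all genes did, with a median difference of -0.51 and a mean level of 0.81 to 2.17 in ketotic and 0.88 to 3.22 in healthy cows. Of 11 stellate and fibroblast markers none passed, with a median difference of -0.88 and a mean level of -2.92 to -1.74 in ketotic and -2.17 to 0.16 in healthy cows, highest in healthy cow 7. Of 16 hepatocyte markers ALB and APOA1 rose, where 0.92% of all genes did, and none fell, with a median difference of 0.57. The mean hepatocyte level was 6.30 in ketotic and 5.75 in healthy cows, and 6.15 in healthy cows without cow 7, which alone was at 3.36. Of 6 bile duct markers KRT8 fell, of 4 lymphocyte markers GNLY fell and CD79B rose, and of 5 endothelial, 2 adipocyte and 2 blood markers none passed. The part of cell type in the FADS1 and FADS2 values was not tested.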

How the data were processed

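Liver RNA of 14 cows was measured on 28 two-colour cDNA arrays. The authors deposited a log2 ratio between the dye channels for each spot; scanner, background correction and normalisation are not given in the sources used here. Medians of single arrays lay between -1.05 and 2.16 as deposited. Ratios at 16.61 (log2 of 100000; 6245 values) and 103458 empty cells were read as not measured. Ratios with the liver in Cy3 were sign-turned, adjacent spots averaged to probes, and arrays centred on the probe median. Centring on probes and not on spots was settled after both had been computed, because it gave the gene counts of an earlier description of these data (929 genes passing, against 838 with spot medians). Both arrays had to give a ratio for a cow to count, and 5 cows per group for a probe to be kept (10420 probes). Probes with 1 symbol in the platform annotation (8645) were named, 8620 of them through ARS-UCD2.0 gene IDs. A gene was the mean of its centred probes.

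Groups were compared with limma 3.58.1 in R 4.3.3 (lmFit, eBayes, two-sided, Benjamini-Hochberg), tested on simulated data; correlations used two-sided exact permutation tests. Nothing pairs cows across groups; cow numbers follow the order of deposit. Members, lists and tests were chosen with earlier results of these data known. The genes named were FADS1 and FADS2, the desaturation list, passing members of other lists (or the smallest p), the correlation partners and the 5 most alike. Alternatives covered scaling, dyes, filters, weights and each cow left out; the number of arrays limits the precision. Figures were drawn with matplotlib 3.10.9. Sequences are not shown.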

Additional observations from a re-analysis of the deposited data

Results flagged for a closer look

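Of 42 groups of values searched, 7 held a cow far from the others of its group, against 2.1 by chance at 1 in 20, and values from one cow are not independent of each other. Neither FADS1 nor FADS2 was among them. Healthy cow 7 was far below the other healthy cows for ELOVL6 (-3.00, the next at -0.67) and far above them for FASN (-0.072, the next at -1.19) and SREBF1 (0.96, the next at 0.16). Ketotic cow 5 was lowest for ACSS2 (-4.81, the next at -2.36) and for DEGS1 (-3.07, the next at -2.05). Ketotic cow 1 was highest for SREBF2 (0.50, the next at -0.64), and healthy cow 6 was highest for SQLE (1.19, the next at 0.066).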

How the results depend on the processing

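FADS2 and FADS1 kept a negative difference in all 26 alternatives run for each, 12 of the processing and 14 with a cow left out. FADS2 ran from -4.60 with arrays scaled to one spread to -3.97 with arrays centred on the probes measured on all arrays, and FADS1 from -3.21 with the liver in Cy3 to -2.56 with one spot per probe. With a cow left out FADS2 ran from -4.81 to -3.35 and FADS1 from -3.35 to -2.44. Counts moved more. Over all genes 929 passed, and 2477 did on the values as deposited, 616 with arrays centred on shared probes, 550 at one spread, 486 with quantile normalisation and 12 with the liver in Cy5 alone. The count was 168 with the share of spots without a ratio as covariate, 1409 with array weights, 576 with medians over named probes and 838 with medians over spots (both chosen after seeing the data), and 652 to 1368 with a cow left out. The 2 other desaturation and elongation genes became 6 as deposited, 1 with the liver in Cy5 and 5 with weights (2 to 6 with a cow left out). The 7 SREBP targets became 13 as deposited, 4 on shared probes, at one spread, with either array or with 3 cows a group, 3 with quantile normalisation or named probes, 1 with the liver in Cy5, 2 with the covariate and 11 with weights (2 to 12 with a cow left out). As deposited and on shared probes, peroxisomal genes gave 3 and 0, phospholipid and eicosanoid genes 5 and 0, and regulators 5 and 1; with a cow left out they gave 0 to 2, 0 to 3 and 0 to 3. Of 28 alternative fits CYB5R3 and TMEM97 passed in 27 (lost with the liver in Cy5), ACSS2 in 23, SQLE in 19, LPCAT3 in 18, FASN in 11, ACAT2 in 10 and FDPS in 7. Signs turned only for differences and correlations that did not pass. FADS3 turned to 0.13 on shared probes, 0.031 with the liver in Cy5, 0.00425 with the ceiling kept, 0.00109 with zeros left out, 0.031 with the covariate, 0.024 with spot medians and 0.12 with named probes (-0.053 to 0.050 with a cow left out). As deposited FADS3 stayed negative at -0.40, where the median over all genes was -0.58. PPARA turned to -0.18 as deposited, -0.12 at one spread, -0.53 with the liver in Cy5, -0.61 with the covariate and -0.21 with weights (-0.13 to 0.39 with a cow left out), and ELOVL5 ran from -0.51 to 0.0069 with a cow left out. The rho of FADS2 turned to 0.464 with SREBF1 in ketotic and -0.036 with FASN in healthy cows as deposited. As deposited, rho was 0.821 for FADS2 with LSS in ketotic cows (adjusted p = 0.152 by the exact permutation test), 0.893 with ACSS2 (0.152) and 0.750 with LSS (0.180) in healthy cows; without healthy cow 7 it was 0.929 (0.128), 0.943 (0.158) and 0.886 (0.180). Without healthy cow 7 the ketotic cows are the same, so the 0.128 there moved only through the adjustment over all relations. The cause of the other shifts was not tested. No paired analysis was possible because the cow numbers only name animals and pair none across the groups.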

Other observations

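Genes next to the desaturase cluster were also read. Of the 20 protein-coding genes nearest to it, 10 on each side in the order of assembly ARS-UCD2.0, 6 had a probe and were tested, and 3 fell, where 12.4% of all genes did. FTH1, the ferritin heavy chain gene beyond FADS3, had a difference of -1.11 (limma adjusted p = 0.00314). SDHAF2, which helps to assemble succinate dehydrogenase, had a difference of -0.60 (limma adjusted p = 0.0204), and ASRGL1, an asparaginase, one of -0.60 (limma adjusted p = 0.0215). TMEM258, close to FADS1, had one of -0.36 (limma adjusted p = 0.169), and CSKMT and INCENP had -0.057 and -0.12. FADS3, which adjoins FADS2, differed by less than 0.30 in either direction at the bounds of its 95% interval with arrays centred on their medians. On the values as deposited its difference was -0.40 (limma adjusted p = 0.157), where the median over all genes was -0.58. These neighbours were chosen after the FADS values were known.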
